A study of Mus musculus with 16 samples.

Results

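The genes described here are 10 members of the fibroblast growth factor (FGF) and extracellular signal-regulated kinase (ERK) circuit of mouse embryonic stem (ES) cells. They were listed by name, with earlier results of these data known. All 10 have a row in each of the 3 deposited tables, which share 24320 gene names. They comprise the ligand genes Fgf4 and Fgf15, the FGF carrier gene Fgfbp1, the phosphatase genes Dusp4 and Dusp6, the inhibitor genes Spry2, Spry4 and Spred1, and the transcription factor genes Etv4 and Etv5. The 16 RNA-seq libraries form 8 groups of 2. The Pml table holds untreated Pml KO cells and untreated WT cells. The arsenite table holds WT cells treated for 2 h with sodium arsenite at 200 µM, which stresses cells by oxidation and protein damage, and untreated WT cells. The Trim33 table holds cells labelled Trim33 KO or WT, each treated for 2 h with activin A at 50 ng/ml, which signals through SMAD2 and SMAD3, or with SB431542 at 10 µM, a blocker of the activin and Nodal receptors. There is no untreated group in the Trim33 table. All groups carry the cell line label E14Tg2a.IV and the strain label C57BL/6 and were grown without feeders in serum and LIF; a further line, CCE, appears in the growth protocol. The sources used here do not say whether each knockout is 1 clone. Nothing in the labels ties the 2 libraries of a group to different cultures; the p-values rest on the spread between libraries alone, and this spread may be technical.

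FGF4 made by the cells acts on FGF receptors of the same and neighbouring cells, and the receptors drive the RAS, RAF, MEK and ERK kinase cascade. In mouse ES cells this signal moves cells from the naive state towards differentiation. ERK activity in turn switches on genes whose products restrain it: DUSP phosphatases remove phosphate from ERK, and Sprouty and SPRED proteins act upstream at the level of the receptor, RAS and RAF. ETV4 and ETV5 are ETS-family transcription factors whose genes are also commonly used as readouts of FGF signalling. FGF15 is the mouse counterpart of human FGF19 and is best known as a hormone of the intestine and as a ligand of the embryonic nervous system. FGFBP1 is a secreted protein that releases FGFs from heparan sulfate.

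Values are FPKM (fragments per kilobase, scaled to library size) in the Pml table and RPKM (reads per kilobase, scaled likewise) in the others. Libraries of the arsenite table held 46700000 to 48400000 reads, as recovered from low values, and between 31100000 and 39400000 reads were recovered for the Trim33 libraries. Depth is unknown for the Pml table. The ES cell label was borne out by its markers, of which all 8 were at 1 or more in every library. Pml itself had 32 and 33.5 FPKM in Pml KO cells, against 49.8 and 45.1 FPKM in WT cells, so the labels were followed but the transcript was not lost. Trim33 had 2.53 and 2.79 RPKM in KO with activin A, against 20.1 and 23.5 RPKM in WT with activin A. With SB431542 it went against the labels, at 18.3 and 24.6 RPKM in the libraries labelled KO and 2.94 and 2.44 RPKM in those labelled WT. All SB431542 libraries are therefore called by their labels, and a genotype direction within them, or a treatment direction within 1 genotype label, rests on a label that Trim33 contradicts. The Y-linked gene Eif2s3y, at 1.1 or less in every library labelled Pml KO or Trim33 KO with activin A and at 16.2 or more in their WT libraries, moved with the genotype. With SB431542 it had 40 and 38.5 RPKM in the libraries labelled KO and 0.143 and 0.0647 RPKM in those labelled WT. Another difference between the lines cannot be told apart from either knockout.

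**Figure D1:**
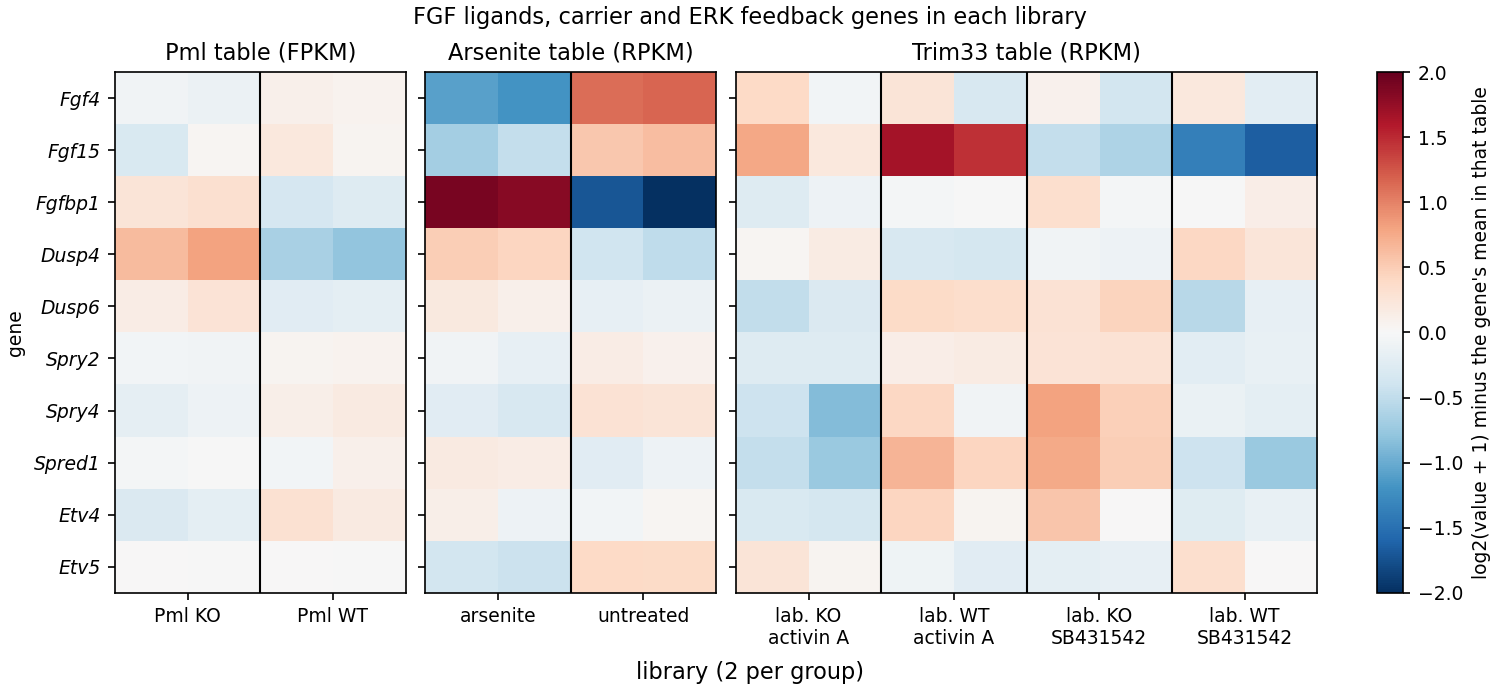
Heat map of the 10 genes (rows) in the 16 libraries (columns, 2 per group), coloured by log2(value + 1) minus the mean of that gene in that table. The strongest contrasts are Fgfbp1 and Fgf4 between arsenite and untreated libraries, and Fgf15 between the activin A and SB431542 groups. In the Trim33 table Dusp6, Spry2, Spry4, Spred1 and Etv4 are bluer in KO with activin A and in the libraries labelled WT with SB431542.

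Fgf4 and Fgf15 lie side by side on chromosome 7 in the plus direction (GENCODE M21 annotation of GRCm38), Fgf4 at positions 144847367 to 144865243 and Fgf15 at 144896531 to 144900953, with 31287 bases between them. Fgfbp1 lies on chromosome 5 at 43978858 to 43981779 on the minus strand. Dusp6 lies on chromosome 10 at 99263231 to 99267489 on the plus strand, Spry2 on chromosome 14 at 105891947 to 105896819 on the minus strand, and Spred1 on chromosome 2 at 117121374 to 117182279 on the plus strand. RefSeq promoter entries (GRCm38.p6) were used for 6 members: Fgf4, Fgfbp1, Dusp6, Spry2, Spred1 and Etv5. No window is reported for the other members, so nothing is said of motifs before their starts. The 250 bases before the RefSeq start are shown for the members with the largest arsenite changes, Fgf4 and Fgfbp1, and for 3 that fell together in the Trim33 KO with activin A, each 5′ to 3′ on the strand of the gene. The windows are chr7:144861136-144861385 on the plus strand for Fgf4, chr5:43981800-43982049 on the minus strand for Fgfbp1, chr10:99262981-99263230 on the plus strand for Dusp6, chr14:105896820-105897069 on the minus strand for Spry2 and chr2:117120821-117121070 on the plus strand for Spred1. The RefSeq start of Fgf4 lies inside the longer GENCODE span of that gene. Capitals mark matches on either strand to 5 motifs: the ETS core CGGAA, which ETV4 and ETV5 can bind, the SMAD-type GGCGCC, the AP-1 site TGANTCA, the antioxidant response element core TGACNNNGC and the cAMP response element TGACGTCA.
Fgf4: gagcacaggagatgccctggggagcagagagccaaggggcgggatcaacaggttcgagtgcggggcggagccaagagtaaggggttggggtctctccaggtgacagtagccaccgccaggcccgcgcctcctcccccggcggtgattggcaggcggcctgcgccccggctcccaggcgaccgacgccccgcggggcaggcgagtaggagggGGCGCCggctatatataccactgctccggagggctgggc
Fgfbp1: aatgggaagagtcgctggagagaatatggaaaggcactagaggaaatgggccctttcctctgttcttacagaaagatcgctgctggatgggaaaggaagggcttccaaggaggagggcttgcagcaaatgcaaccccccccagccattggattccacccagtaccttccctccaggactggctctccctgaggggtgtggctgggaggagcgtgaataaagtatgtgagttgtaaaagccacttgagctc
Dusp6: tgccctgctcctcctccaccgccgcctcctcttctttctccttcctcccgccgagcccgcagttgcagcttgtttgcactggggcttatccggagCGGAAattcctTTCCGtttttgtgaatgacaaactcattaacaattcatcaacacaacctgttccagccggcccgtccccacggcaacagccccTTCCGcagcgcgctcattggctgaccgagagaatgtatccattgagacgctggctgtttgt
Spry2: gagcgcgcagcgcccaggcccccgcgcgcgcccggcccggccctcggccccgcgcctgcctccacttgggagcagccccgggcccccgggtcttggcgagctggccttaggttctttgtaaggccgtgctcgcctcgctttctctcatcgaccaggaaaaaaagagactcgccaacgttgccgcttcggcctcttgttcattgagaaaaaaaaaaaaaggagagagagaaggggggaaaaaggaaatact
Spred1: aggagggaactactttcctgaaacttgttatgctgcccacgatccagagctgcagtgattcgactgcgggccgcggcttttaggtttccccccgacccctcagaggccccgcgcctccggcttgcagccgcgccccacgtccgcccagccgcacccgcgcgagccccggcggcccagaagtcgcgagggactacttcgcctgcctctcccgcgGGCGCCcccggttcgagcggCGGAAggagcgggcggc
The Dusp6 window held 3 ETS cores, of which the one nearest the start spans bases -61 to -57. Spred1 held 1 ETS core and 1 GGCGCC, and Fgf4 held 1 GGCGCC at bases -39 to -34. A window of Etv5, which did not fall in the Trim33 KO with activin A and is not printed here, also held GGCGCC, at bases -231 to -226. The Fgfbp1 and Spry2 windows held none of the 5 motifs. Among all 32851 promoter windows of this length, 25.2% held CGGAA, 9.59% GGCGCC, 6.75% TGANTCA, 10.2% TGACNNNGC and 1.55% TGACGTCA. No 2 of the matches overlapped. GC content was 71.2% in the Fgf4 window and 53.6% in the Fgfbp1 window, against a median of 52.4% over all windows.

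Arsenite cells were set against untreated cells to read the early stress response. The 2 largest changes among the members were in opposite directions: Fgf4 fell to 0.193 times its untreated level and Fgfbp1 rose 15.3-fold. The feedback genes split, with Dusp4, Dusp6 and Spred1 higher and Spry2, Spry4 and Etv5 lower. In all, 9 of the 10 members passed, 4 higher and 5 lower, where 67.7% of the 12136 genes tested in that table passed, 40.7% higher and 27% lower. With so many genes called, a call alone says little about a member, and the sizes are given for each.

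Fgf4 had 11.7 and 10.9 RPKM in arsenite cells, against 57.3 and 59.6 RPKM in untreated cells. The groups were far apart and each pair of libraries close together. Its log2 fold change was -2.28 ± 0.05 (SE, n = 2 each, limma adjusted p = 1.80e-07), rank 21 by size among 3282 genes called lower. Fgf15 was a low gene here, with 0.45 and 0.67 RPKM in arsenite cells, against 2.37 and 2.56 RPKM in untreated cells. On the 1810 bases of its annotated exons these levels stand for about 38 and 58 reads in arsenite cells and 208 and 221 in untreated cells, so the fall is not a matter of single reads. Its change was -1.15 ± 0.11 on the log2(value + 1) scale (limma adjusted p = 7.86e-05), which understates the change of so low a gene; the ratio of the means was 0.227. Both arsenite values are under 1, so Fgf15 entered the test only through the untreated libraries, and with either of these left out, or with a filter at 5, it was not tested.

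Fgfbp1 had 84.3 and 80.2 RPKM in arsenite cells, against 6.01 and 4.74 RPKM in untreated cells. The lowest arsenite library was thus far above both untreated libraries. The log2 fold change was 3.71 ± 0.09 (SE, n = 2 each, limma adjusted p = 1.91e-07), rank 2 by size among 4939 genes called higher. The gene of most like pattern over the 16 libraries, each centred on its table mean, was Slc40a1, the iron exporter gene (Pearson r = 0.979 over 16 libraries, which fall into 8 groups), and the next were Nucb1 and Ctsa at 0.978 and 0.976. For Fgf4 they were Cobl, Rarg and Itga9 at 0.984, 0.977 and 0.965. Fgfbp1 and Fgf4 both changed most with arsenite, so the libraries of the arsenite table weigh most in these correlations. The correlations are descriptions and carry no test.

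**Figure D2:**
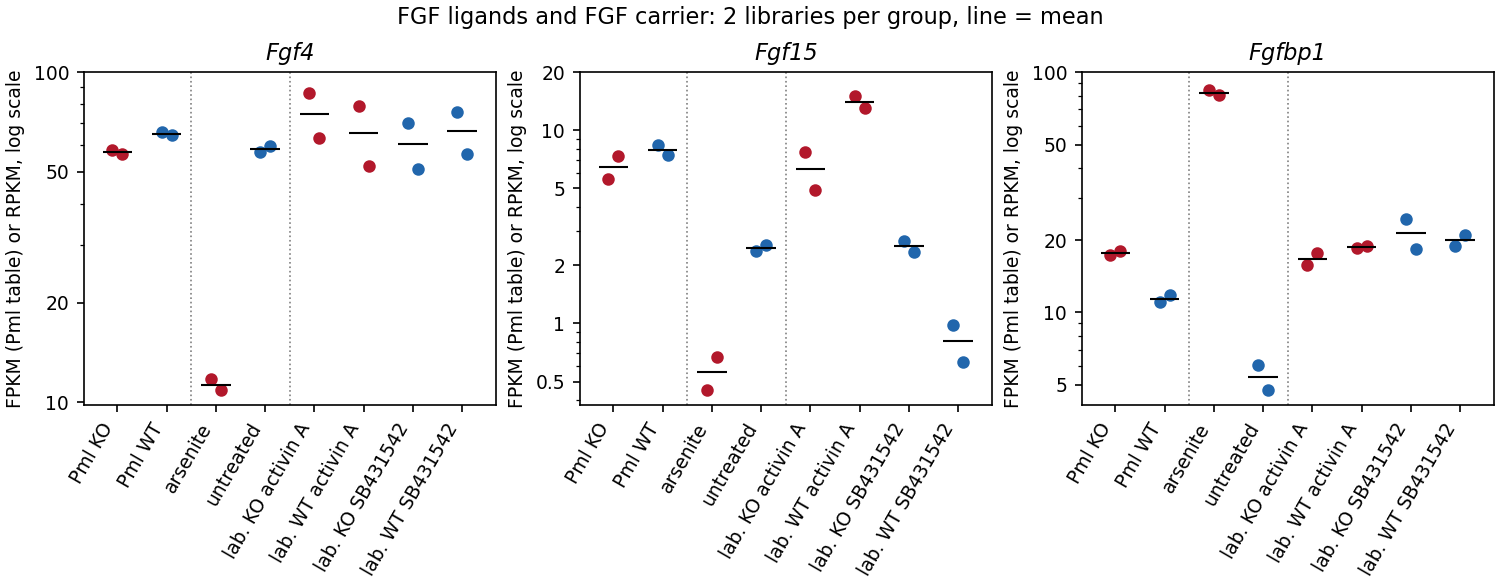
Fgf4, Fgf15 and Fgfbp1 in each library (points; black line, group mean; log axis; FPKM in the Pml table and RPKM in the others; dotted lines separate the tables, which were normalised separately). Fgf4 is low only in the 2 arsenite libraries (10.9 and 11.7 RPKM), Fgfbp1 is highest there (80.2 and 84.3 RPKM), and Fgf15 is highest in WT with activin A (13 and 15.1 RPKM).

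Among the phosphatase genes, Dusp4, whose product acts on ERK in the nucleus, had 59.7 and 57.1 RPKM in arsenite cells, against 31.7 and 29.3 RPKM in untreated cells. It rose by 0.92 ± 0.05 on the log2 scale (limma adjusted p = 5.27e-06). Dusp6, whose product is an ERK phosphatase of the cytoplasm, had 57.1 and 53.6 RPKM against 44.2 and 45.7 RPKM in untreated cells, a rise of only 0.29 ± 0.05 (adjusted p = 9.01e-04). The groups of libraries were separate for both genes, as for 9 of the 10 members and 61 of the 68 other pathway genes tested. The share of all genes with separate groups was not computed. The Dusp6 change was small, 1.23-fold.

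Among the inhibitors of the cascade, Spry2 and Spry4 fell and Spred1 rose. Spry4 had 31.8 and 29.9 RPKM in arsenite cells, against 46.2 and 45.3 RPKM in untreated cells (-0.56 ± 0.05, limma adjusted p = 3.83e-05). Spry2 had 69.4 and 65.1 RPKM against 81.2 and 77.3 RPKM in untreated cells (-0.23 ± 0.05, adjusted p = 0.00295). Spred1, whose product brings the RAS inhibitor neurofibromin to the membrane, had 23 and 22.6 RPKM against 17.1 and 18.8 RPKM in untreated cells (0.33 ± 0.06, adjusted p = 0.00162). The arsenite libraries of all 3 genes lay outside the untreated range, with changes well under 2-fold. The groups were likewise separate for 61 of 68 other genes of the pathway. The ETS pair diverged: Etv5 had 88.3 and 84.2 RPKM in arsenite cells, against 151 and 148 RPKM in untreated cells (-0.79 ± 0.04, adjusted p = 3.02e-06), while Etv4 had 20.9 and 18 RPKM against 18.5 and 19.9 RPKM, overlapping groups (0.02 ± 0.08, adjusted p = 0.870, 95% interval -0.16 to 0.19). Scaling by trimmed means (TMM) moved the median log2 change of all genes to -0.06, against 0.08 without it. No member gained or lost a call with it and no called member changed sign. Dusp6 was then at 0.14 (limma adjusted p = 0.0354), Spred1 at 0.17 (adjusted p = 0.0253), and the uncalled Etv4 at -0.14 (adjusted p = 0.144). Over all genes 4939 were higher and 3282 lower, against 3460 and 4784 with TMM scaling and 3833 and 3982 with quantile normalization.

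Of 86 other genes of the pathway, listed by role, 68 could be tested with arsenite, and 32 rose and 13 fell, or 66.2%, near the 67.7% of all genes. Their median log2 change was 0.18, beside 0.08 over all genes tested, and the counts by role that follow are read against the same share. By size Fgf17 came first, but it entered the test only through the untreated libraries. Fgf17, a ligand gene, was at 0.438 ± 0.0251 RPKM in arsenite cells, against 4.52 ± 0.727 RPKM in untreated cells (SD, n = 2 each; -1.93 ± 0.12, limma adjusted p = 7.49e-06). Of the 5 receptor and co-receptor genes tested 4 rose, Fgfr2 most, to 21.5 ± 0.671 RPKM against 4.92 ± 0.114 RPKM in untreated cells (1.93 ± 0.06, adjusted p = 5.51e-07). Of the 16 heparan sulfate and carrier genes 9 rose and 1 fell, among them the glypican gene Gpc4, which rose by 1.32 ± 0.06. Of 10 other ERK feedback inhibitors 6 rose and none fell. They include a further Sprouty gene, Spry1, at 24.5 ± 0.155 RPKM in arsenite cells and 12.9 ± 0.743 RPKM in untreated cells (0.88 ± 0.06, adjusted p = 1.06e-05), the direction opposite to Spry2 and Spry4. By contrast, of 10 other ERK-responsive genes 3 rose and 6 fell. Egr1, an immediate early gene, was at 4.4 ± 0.939 RPKM in arsenite cells, against 17.3 ± 2.28 RPKM in untreated cells (-1.77 ± 0.13, adjusted p = 2.01e-05), while Phlda1 rose by 1.12 ± 0.09. The 8 ES cell markers summed to 2720 to 2840 RPKM in arsenite cells and 5180 to 5250 RPKM in untreated cells, and the 7 trophectoderm markers to 141 to 144 RPKM against 89.8 to 90.8 RPKM in untreated cells. The 7 fibroblast markers summed to 111 to 117 RPKM in arsenite cells and 58.9 to 59.5 RPKM in untreated cells, with Lum at 0 in all 4 libraries. The 7 primitive endoderm markers summed to 14.7 to 15.8 RPKM in arsenite cells and 7.94 to 8.28 RPKM in untreated cells, and the 5 markers of formative or primed epiblast to 75.1 to 77.7 RPKM in arsenite cells and 91.1 to 93.5 RPKM in untreated cells. Their part in the changes of the members was not tested. In bulk samples fewer cells of a type and less RNA per cell cannot be told apart.

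Pml KO cells were set against WT cells. PML is the scaffold protein of nuclear bodies. Another difference between the lines cannot be told apart from the knockout, so dependence on PML itself is not shown. The main change among the members was in Dusp4, which rose 2.87-fold. Fgfbp1 and Dusp6 also rose, and Etv4, Spry4 and Fgf4 fell. In all 6 of the 10 members passed, 3 in each direction, where 35.5% of the 11648 genes tested passed, 16.6% higher and 18.9% lower. Fgf15, Spry2, Spred1 and Etv5 did not pass.

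Dusp4 had 28.2 and 32 FPKM in Pml KO cells, against 11.1 and 9.88 FPKM in WT cells, so the knockout libraries were far above both others (1.44 ± 0.08, SE, n = 2 each, limma adjusted p = 6.79e-06). It ranked 153 by size among 1931 genes called higher. Dusp6 rose less, with 44.9 and 49.2 FPKM in Pml KO cells, against 34.2 and 35.3 FPKM in WT cells (0.42 ± 0.06, adjusted p = 0.00115). Fgfbp1 had 17.3 and 18.1 FPKM in Pml KO cells, against 11 and 11.8 FPKM in WT cells (0.59 ± 0.07, adjusted p = 4.07e-04). All 3 genes that rose here also rose with arsenite, where 40.7% of all genes tested were called higher. The share of all genes that rose in both comparisons was not computed. The order of size was different: Fgfbp1 changed most with arsenite and Dusp4 most in the knockout. The Pml and arsenite comparisons share no libraries.

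Etv4 had 43.9 and 46.7 FPKM in Pml KO cells, against 66.4 and 61 FPKM in WT cells, a fall of 0.48 ± 0.06 on the log2 scale (limma adjusted p = 5.70e-04). Etv5 was level, with 152 and 150 FPKM in Pml KO cells, against 151 and 150 FPKM in WT cells (0.01 ± 0.04, adjusted p = 0.904, 95% interval -0.09 to 0.11). The ETS pair thus diverged in this comparison as it did with arsenite, but with the other member changed. Spry4 had 28.1 and 29.6 FPKM against 34.7 and 36.2 FPKM in WT cells (-0.29 ± 0.06, adjusted p = 0.00618). Fgf4 fell slightly, with 57.9 and 56.6 FPKM in Pml KO cells, against 65.9 and 64.5 FPKM in WT cells (-0.18 ± 0.05, adjusted p = 0.0214). That call was lost with quantile normalization (adjusted p = 0.0637), without a variance trend (adjusted p = 0.0734), and without either knockout library (adjusted p = 0.0751 without replicate 1 and 0.153 without replicate 2). Fgf15 had 5.62 and 7.35 FPKM against 8.42 and 7.46 FPKM in WT cells (-0.26 ± 0.12, adjusted p = 0.123), and passed only without Pml KO replicate 2 (-0.43, adjusted p = 0.00633).

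Of the 86 other pathway genes 67 could be tested in the Pml table, and 21 rose and 9 fell, or 44.8% beside 35.5% of all genes, with a median of 0.11 beside -0.02. Other ERK feedback inhibitors rose in 6 of 11 cases and fell in none. Examples were Errfi1, which restrains the EGF receptor, at 24.7 ± 1.86 FPKM in Pml KO cells and 9.04 ± 0.0549 FPKM in WT cells (SD, n = 2 each), and Dusp5, a nuclear ERK phosphatase gene, at 14.3 ± 1.78 FPKM and 5.83 ± 0.215 FPKM in WT cells. Of 11 other ERK-responsive genes 6 rose and 2 fell. Phlda1 rose most, by 2.05 ± 0.07 (limma adjusted p = 3.56e-07), and the cytokine gene Lif by 1.13 ± 0.10. Heparan sulfate and carrier genes rose in 7 of 15 cases and fell in 1, among them the proteoglycan genes Gpc4 (1.35 ± 0.07) and Sdc3 (1.52 ± 0.11). Sdc3 entered the test only through the Pml KO libraries. The 7 trophectoderm markers summed to 648 to 667 FPKM in Pml KO cells and 60.8 to 65.8 FPKM in WT cells, and the 7 fibroblast markers to 267 to 282 FPKM against 95.5 to 99 FPKM in WT cells. The 7 primitive endoderm markers summed to 3.34 to 3.36 FPKM in Pml KO cells and 7.51 to 7.99 FPKM in WT cells. Their part in the changes of the members was not tested.

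**Figure D3:**
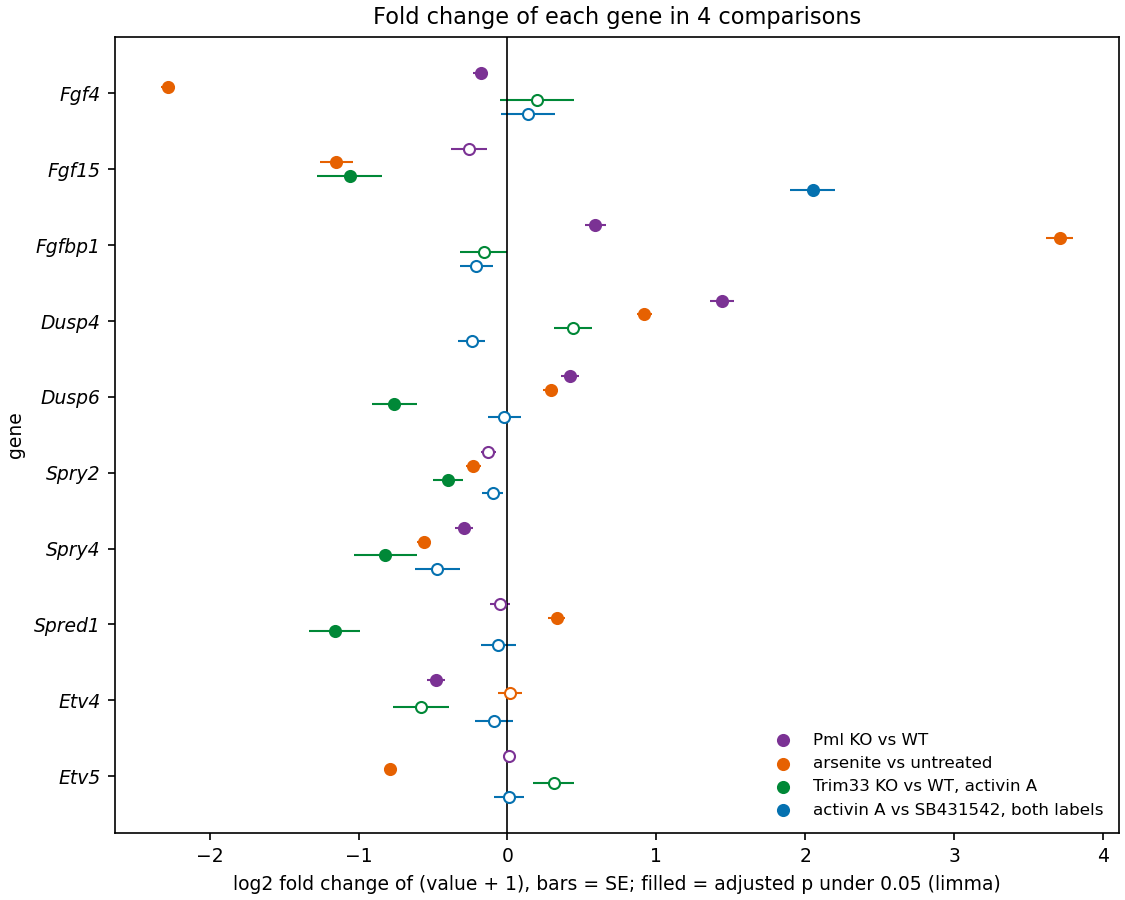
Log2 fold change of each gene on the (value + 1) scale in 4 comparisons (points; bars, SE; filled points passed at adjusted p under 0.05 in limma). Fgfbp1 (3.71) and Fgf4 (-2.28) stand out with arsenite and Dusp4 (1.44) in the Pml KO. Fgf15 (2.05) is the filled point for activin A against SB431542, and the filled points of Trim33 KO against WT with activin A all lie below 0.

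Trim33 KO cells were set against WT cells with activin A in both, where the Trim33 level goes with the label. TRIM33 is a chromatin-bound protein that can join SMAD2 and SMAD3. The ERK feedback genes Spred1, Spry4, Dusp6 and Spry2 fell, and so did Fgf15, to between 0.429 and 0.753 times their WT means. No member rose. The 5 of 10 members that passed, all lower, stand beside 9.43% of the 11914 genes tested, of which 2.82% were lower and 6.61% higher. Over all genes 787 were higher and 336 lower, against 644 and 472 with TMM scaling and 670 and 488 with quantile normalization, and under both the same number of members passed.

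Spred1 had 13.4 and 11 RPKM in Trim33 KO cells with activin A, against 30.8 and 25.9 RPKM in WT cells with activin A. This was the largest fall among the members (-1.16 ± 0.17, SE, n = 2 each, limma adjusted p = 0.00643). Dusp6 had 25.5 and 29.3 RPKM in KO, against 47.7 and 46.4 RPKM in WT (-0.76 ± 0.15, adjusted p = 0.0191). Spry2 had 47.4 and 47.3 RPKM in KO, against 62 and 63.9 RPKM in WT (-0.40 ± 0.10, adjusted p = 0.0443). The groups of these 3 genes were separate by more than the gap within either. Spry4 had 19.5 and 13.9 RPKM in KO, against 35.3 and 25.2 RPKM in WT (-0.82 ± 0.21, adjusted p = 0.0417), also without overlap but with a wide spread inside both groups. Fgf15 had 7.75 and 4.9 RPKM in KO, against 15.1 and 13 RPKM in WT (-1.06 ± 0.22, adjusted p = 0.0201).

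Etv4 lay on the same side, with 51.1 and 49.7 RPKM in KO, against 86.1 and 66.5 RPKM in WT, but did not pass (-0.58 ± 0.19, limma adjusted p = 0.0917). With the activin A libraries fitted alone it did (adjusted p = 0.0280), and 6 members then passed. Dusp4 and Etv5 lay on the other side. Dusp4 had 11.9 and 12.9 RPKM in KO, against 8.94 and 8.75 RPKM in WT (0.44 ± 0.13, adjusted p = 0.0702), and Etv5 had 110 and 94.8 RPKM in KO, against 86.5 and 78.2 RPKM in WT (0.31 ± 0.14, adjusted p = 0.210). Neither passed. The groups did not overlap for either gene, but neither did they for 38 of the 68 other pathway genes tested in this comparison. The share over all genes was not computed. Fgf4 and Fgfbp1 gave wide intervals: 95% of -0.37 to 0.77 for Fgf4 and -0.51 to 0.20 for Fgfbp1 on the log2 scale, so a change of up to 1.71-fold in Fgf4 lies within its interval. Most of these calls were lost when 1 of the 4 libraries was left out: there were 2 members called without KO replicate 1, 1 without KO replicate 2, 0 without WT replicate 1 and 1 without WT replicate 2, with the directions of the 5 genes kept and adjusted p of up to 0.243.

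**Figure D4:**
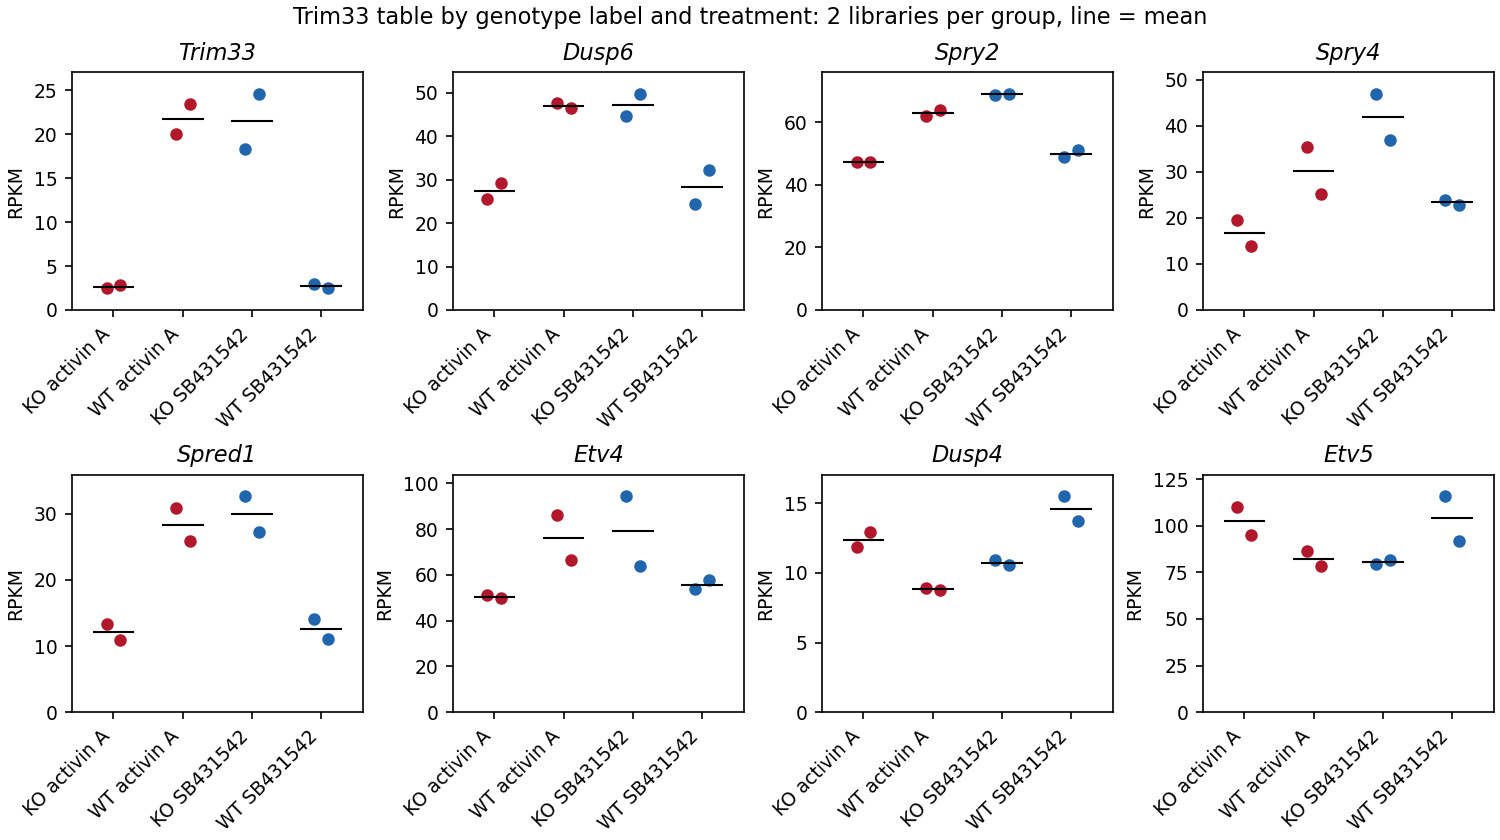
Trim33 and 7 feedback and ETS genes in the Trim33 table (RPKM, points; line, group mean; red, activin A; blue, SB431542), by genotype label. Dusp6, Spry2, Spry4, Spred1 and Etv4 are higher in WT with activin A and in the libraries labelled KO with SB431542, the groups in which Trim33 averages 21.8 and 21.5 RPKM, and Dusp4 and Etv5 are lower there.

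With SB431542 the same genes passed with the sign turned round between the labels. Spred1 had 32.7 and 27.2 RPKM in the libraries labelled KO, against 14.1 and 11 RPKM in those labelled WT (1.20 ± 0.17, limma adjusted p = 0.00543). Dusp6 had 44.6 and 49.8 RPKM in the libraries labelled KO, against 24.4 and 32.4 RPKM in those labelled WT (0.72 ± 0.15, adjusted p = 0.0222). Spry2 had 68.9 and 69.1 RPKM against 49 and 51.1 RPKM in those labelled WT (0.46 ± 0.10, adjusted p = 0.0283). In each of these genes the libraries labelled KO lay above those labelled WT, as did Trim33. Spry4 had 46.9 and 37 RPKM against 24 and 22.8 RPKM in those labelled WT (0.81 ± 0.21, adjusted p = 0.0436), and Fgf15 had 2.68 and 2.34 RPKM against 0.981 and 0.634 RPKM in those labelled WT (0.96 ± 0.22, adjusted p = 0.0283). In all, 5 of 10 members passed, all higher in the libraries labelled KO, where 9.56% of all genes passed, 3.01% higher and 6.55% lower. The 5 epiblast markers summed to 170 to 199 RPKM in the libraries labelled KO and 88.9 to 91.8 RPKM in those labelled WT with SB431542, and their part in these differences was not tested. No genotype direction is drawn from this, since Trim33 contradicts those labels. Leaving out replicate 1 labelled WT left 1 member called, and leaving out any of the others left 2.

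Among the other pathway genes, 68 were tested in the Trim33 table and 7 passed for KO against WT with activin A, 5 higher and 2 lower (10.3%, near the 9.43% of all genes). Signal transducers among those higher in KO included the adaptor gene Gab1 at 84 ± 5.25 RPKM in KO and 42.2 ± 7.33 RPKM in WT (SD, n = 2 each; 0.98 ± 0.14, limma adjusted p = 0.00463), the kinase gene Araf (0.90 ± 0.12), the receptor gene Fgfr1 (0.76 ± 0.13) and the adaptor gene Grb2 (0.57 ± 0.11). The cyclin gene Ccnd1, an ERK-responsive gene, was at 49.9 ± 1.52 RPKM in KO and 98.4 ± 9.08 RPKM in WT (-0.96 ± 0.12, adjusted p = 0.00258). Of 11 other ERK feedback inhibitors tested none passed by limma, in either direction, and 5 had an unadjusted p under 0.05. Spry1 was at 4.39 ± 0.423 RPKM in KO and 4.21 ± 0.175 RPKM in WT. The 5 markers of formative or primed epiblast summed to 93.3 to 95.5 RPKM in KO with activin A and 176 to 185 RPKM in WT with activin A. The 7 trophectoderm markers gave 167 to 226 RPKM in KO and 134 to 183 RPKM in WT, and the 7 fibroblast markers 151 to 238 RPKM in KO and 143 to 154 RPKM in WT. Their part in the changes of the members was not tested.

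The mean effect of activin A against SB431542 over both genotype labels does not change if the genotype labels of the SB431542 groups are exchanged. It asks which genes differ between active and blocked activin and Nodal receptors after 2 h, and among the members only Fgf15 passed. Fgf15 had 7.75 and 4.9 RPKM in KO with activin A and 15.1 and 13 RPKM in WT with activin A, against 2.68 and 2.34 RPKM in the libraries labelled KO with SB431542 and 0.981 and 0.634 RPKM in those labelled WT with SB431542. Every activin A library was above every SB431542 library, and the means were 10.2 ± 4.7 RPKM with activin A and 1.66 ± 1 RPKM with SB431542 (SD, n = 4 each), a 6.14-fold difference. The log2 fold change of (value + 1) was 2.05 ± 0.15 (SE, limma adjusted p = 0.00133, 95% interval 1.70 to 2.40), which understates the change of so low a gene. Only 13 of 11914 genes passed, 0.109%, all higher with activin A, and besides Fgf15 they included the Nodal inhibitor gene Lefty1 (4.04) and the SMAD inhibitor gene Smad7 (2.40). The lowest values are still backed by reads, about 39.9 and 69.9 in the libraries labelled WT with SB431542 and 342 to 906 in the activin A libraries. The genes of most like pattern to Fgf15 over the 16 libraries were Epha2, an ephrin receptor gene, Lefty1, and Mcl1, a survival gene, with Pearson r of 0.948, 0.923 and 0.906, a description with no test.

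The Fgf15 response was also taken between groups of like Trim33 level. WT with activin A against the libraries labelled KO with SB431542 gave 14.1 ± 1.5 RPKM and 2.51 ± 0.242 RPKM (SD, n = 2 each), a log2 change of 2.10 ± 0.22 (SE, limma adjusted p = 0.0168). KO with activin A against the libraries labelled WT with SB431542 gave 6.32 ± 2.02 RPKM and 0.807 ± 0.245 RPKM, a log2 change of 2.00 ± 0.22 (adjusted p = 0.0250). The difference of the 2 changes was 0.10 ± 0.31 on the log2(value + 1) scale (limma adjusted p = 1.00, 95% interval -0.60 to 0.80). That scale understates changes of so low a gene, more so where values are under 1. The ratios of the means were 5.6 for the first pair and 7.83 for the second, in the opposite order. Equal responses are therefore not shown. These pairs were chosen because the Trim33 values were known. Fgf15 passed in both, where 0.042% and 0.0504% of all genes did, and no other member passed in either. By its arithmetic the difference of the 2 changes is the sum of the KO against WT changes with activin A and with SB431542, with the sign turned round. It is no separate test.

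The remaining 9 members did not pass for activin A against SB431542 (limma), and 2 of them had an unadjusted p under 0.05. Spry4 averaged 23.5 ± 9.13 RPKM with activin A and 32.7 ± 11.5 RPKM with SB431542 (SD, n = 4 each; -0.47 ± 0.15, adjusted p = 1.00), and Dusp4 averaged 10.6 ± 2.1 RPKM with activin A and 12.7 ± 2.36 RPKM with SB431542 (-0.24 ± 0.09, adjusted p = 1.00). For Dusp6, Spred1, Etv4 and Etv5 the 95% intervals ran no further than -0.39 to 0.24 on the log2 scale, which bounds a mean treatment effect at 2 h but does not show that there is none. Fgf4 averaged 70.3 ± 15.5 RPKM with activin A and 63.3 ± 11.7 RPKM with SB431542. Its spread ran with the replicate number, since the library numbered 1 was above that numbered 2 in all 4 groups, by 1.35 to 1.52 times. The same order held in all 4 groups for Fgf15, Spry4 and Spred1, and the labels do not say that a number marks a shared day or culture. Of the 68 other pathway genes tested none passed for activin A against SB431542 by limma, and 9 had an unadjusted p under 0.05.

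Within 1 genotype label the treatment comparison takes in the contradicted label, and most feedback genes then had opposite signs in the 2 labels. In the groups labelled WT, Fgf15 was higher with activin A by 3.06 on the log2(value + 1) scale, with a ratio of the means of 17.4. Spred1 was higher by 1.12 and Dusp6 by 0.72, and Dusp4 was lower (-0.66). Those 4 of 10 members passed by limma, where 11.3% of all genes did, 3.89% higher and 7.45% lower. In the groups labelled KO, Fgf15 was higher by 1.03, while Spry4 (-1.29), Spred1 (-1.23), Dusp6 (-0.76) and Spry2 (-0.53) were lower. Those 5 members passed, where 10.5% of all genes did, 7.18% higher and 3.29% lower. The difference between the labels itself passed for 8 of 10 members, 6 positive and 2 negative, beside 26.3% of all genes, 10.1% positive and 16.1% negative. By its arithmetic this difference restates the KO against WT changes with SB431542 and with activin A, so it is no separate test.

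Within the feedback genes of the Trim33 table the 8 libraries moved together in 2 sets. Over these libraries, which share 4 groups, Spred1 and Spry2 had Pearson r of 0.94, Dusp6 and Spry2 0.94, and Etv4 and Spry4 0.88, while Dusp6 had -0.93 with Etv5 and -0.83 with Dusp4. Other pairs were weaker, such as Dusp6 and Spry4 at 0.73, Spry4 and Etv5 at -0.58 and Spry4 and Dusp4 at -0.47. The correlations run over the same 4 groups compared above, so the sets are no separate result. The ETS pair had -0.69. Etv4 and Etv5, commonly read together, thus had opposite signs in this table, and in the Pml and arsenite tables only 1 of them changed. The genes of most like pattern to Etv4 over all 16 libraries were Capns1, Ddx39b and Adsl at 0.948, 0.936 and 0.927. These values are descriptions and carry no test.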

How the data were processed

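Gene expression was measured by RNA-seq. Per the submitters' processing notes, featureCounts 2.0.1, Bowtie2 2.3.3, SAMtools 1.9, FastQC 0.11.5, DESeq2 and the mm10 build were used, in roles the notes do not state. Whether counting used strand is not stated there either. The authors deposited FPKM values for the Pml table and RPKM values for the arsenite table. The deposited Trim33 table names no unit and was read as RPKM, because low values of 1550 single-exon genes (same length in GENCODE and RefSeq) were whole multiples of 1 read, within 0.05 reads, in 93% to 97.3% of cases under 20 reads, as in the arsenite table. Of the Pml values only 23.1% to 30% were.

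Untreated columns of the arsenite table carry another letter than the titles and were matched as the group left over. Names turned into dates, 27 per file, were left out. No 2 libraries held identical values. Tables were fitted separately with limma 3.58.1 in R 4.3.3 (lmFit, eBayes with an intensity trend, two-sided) on log2(value + 1), for genes at 1 or more in at least 2 libraries, with Benjamini-Hochberg adjustment over all of them and a call at 0.05. All 10 members passed that filter in each table. The Trim33 table was fitted as 4 group means. Fits were tested on simulated data. The members, lists, motifs and comparisons were chosen with earlier results of these data known. Named pathway genes are the up to 6 called genes with the largest change whose groups do not overlap; Spry1 was named after its values were seen. Some genes that meet these rules are not reported here. Alternatives were a pseudocount of 0.1, no filter or a filter at 5, TMM scaling (unweighted, written for these values), quantile normalization, no trend, a replicate block, a fit of 2 groups alone, and each library left out. Python 3.11.15, numpy 2.4.6, pandas 2.3.3 and matplotlib 3.10.9 were used for depth, sequences and figures. The Pml, arsenite and Trim33 fits had 2, 2 and 4 residual degrees of freedom.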

Additional observations from a re-analysis of the deposited data

Results flagged for a closer look

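The difference between activin A and SB431542 was itself different between the genotype labels for 8 of the 10 members (interaction contrast in limma, 26.3% of all genes passed). The activin A effect in the groups labelled WT minus that in the groups labelled KO was 2.35 for Spred1 (adjusted p = 4.06e-04), 2.03 for Fgf15 (adjusted p = 0.00220), 1.63 for Spry4 (adjusted p = 0.00475), 1.49 for Dusp6 (adjusted p = 0.00186), 1.05 for Etv4 (adjusted p = 0.0213), 0.86 for Spry2 (adjusted p = 0.00370), -0.66 for Etv5 (adjusted p = 0.0399) and -0.85 for Dusp4 (adjusted p = 0.0114), all on the log2 scale. The effects behind these values had opposite signs for Dusp6, 0.72 within the label WT and -0.76 within the label KO, and the same sign for Fgf15, 3.06 and 1.03. By its arithmetic the contrast equals the KO against WT change with SB431542, as labelled, minus that with activin A. It therefore restates those 2 comparisons and is no separate test. It also sets the groups of high Trim33 against the groups of low Trim33. Trim33, which goes against the label in the SB431542 libraries, itself had 5.23. A difference by genotype label and a difference by Trim33 level therefore cannot be told apart from these labels. Taken between groups of like Trim33 level, the same kind of difference passed for 0 of the 10 members and 0 of the 11914 genes tested. Of the members 0 had an unadjusted p under 0.05 (limma). By its arithmetic this difference is the sum of the same 2 KO against WT changes with the sign turned round. The pairs were also chosen with the Trim33 values known, so it is no separate test either.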

How the results depend on the processing

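Over 597 recomputed fold changes of single members, 550 kept their side of the threshold, 44 lost and 3 gained a call, and no called member changed sign. Some uncalled values near 0 did change sign, such as Etv4 with arsenite. In the Trim33 table the count of 5 called members for KO against WT fell to 3 with no filter on low values and to 3 without a variance trend, both with activin A and, as labelled, with SB431542. Testing each pair of groups alone gave 6 with activin A and 3 as labelled with SB431542. Leaving out 1 library gave 0 to 2 and 1 to 2 called members in those comparisons, 5 to 6 of 6 in the Pml KO, 8 to 9 of 9 with arsenite (8 where Fgf15 was not tested), and 1 throughout for activin A against SB431542. Over all genes, leaving out 1 library gave 185 to 355 calls against 1123 for KO against WT with activin A, 294 to 1036 against 1139 as labelled with SB431542, and 7 to 16 against 13 for activin A against SB431542; the pairs tested alone gave 1852 and 608, and no filter gave 8 calls in place of 13 for activin A. As labelled with SB431542, 359 genes were higher and 780 lower, against 485 and 617 with TMM scaling and 465 and 650 with quantile normalization. The cause of these moves was not tested.

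The replicate numbers were not taken as pairs, since the labels do not say that a number marks a shared culture or day and not every correlation was over 0.1: deviations from group means correlated by 0.02 in the Pml table and by -0.14 to 0.60 in the Trim33 table. With a replicate block 6 members were called in the Pml KO, 5 in each KO against WT comparison and 1 for activin A against SB431542, as without it; over all genes the block gave 1584 calls for KO against WT with activin A, 1557 as labelled with SB431542 and 23 for activin A against SB431542. No paired analysis was possible for arsenite because the untreated columns carry no replicate number tied to a sample. Depth is unknown in the Pml table, so no counting limit can be given there.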
